A study of Homo sapiens with 2 samples.

Results

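Sprouty, SPRED, PEA3-group ETS and PHLDA1 genes form the feedback and transcriptional output arm of ERK signalling, and 9 of them were examined here: SPRY1, SPRY2, SPRY4, SPRED1, SPRED2, SPRED3, ETV4, ETV5 and PHLDA1. They were chosen by name from the 51640 gene symbols listed in the deposited tables. The rule used no measured value, but the choice was made with earlier results of these data known. Each has 1 row in both tables, and none of their estimates was marked as failed. The data are paired-end RNA-seq of HCT116, an established human colon cancer cell line, grown in DMEM with antibiotics and fetal bovine serum to near confluence, with no treatment named. There is 1 group of 2 libraries, named PF and PJ, which the submitters call biological replicates; the labels do not say what the letters stand for or how the cultures differed. Both come from the same line, and no normal colon library was analysed here, so the values describe this line alone.

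In the ERK pathway, receptor tyrosine kinases activate RAS, and the RAF, MEK and ERK kinases pass the signal on to transcription factors. ERK activity switches on genes that restrain the pathway: Sprouty proteins act near the receptor and RAF, and SPRED proteins bring the RAS inhibitor NF1 to the membrane. ETV4 and ETV5 are ETS-domain transcription factors of the PEA3 group whose genes are freed from the repressor Capicua when ERK is active, and PHLDA1, a PH-like domain gene, is also induced. Because these transcripts follow ERK activity in many cells, SPRY2, SPRY4, ETV4, ETV5 and PHLDA1 are members of a published 10-gene score of ERK output.

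Levels are in FPKM, a fragment count scaled for transcript length and library total, so genes can be compared within a library. Expression was called where both libraries reached 1 FPKM. The deposited 95% bounds cover error of the estimate in 1 library, not differences between cultures. Ratios are given as PJ over PF. With 1 library on each side no p-value was computed, and log2 ratios use FPKM plus a pseudocount of 1, which understates the difference for low genes. Across the 15736 symbols whose mean reached 1 FPKM the median log2 ratio was 0.22. Over symbols expressed in both libraries the median linear ratio was 1.19, or 0.25 on the log2 scale, and differences were also read after dividing this shift out. Epithelial markers were present, with 7 of 7 expressed and a sum of 1556 FPKM in PF and 913 in PJ. Of these KRT8 (760 and 280), CLDN4 (33.3 and 11.3) and CDH1 (21.9 and 1.80) were at least 2-fold lower in PJ, whereas KRT19 (306 and 325) and CLDN3 (4.58 and 5.47) were slightly higher there (KRT19 not after the shift was divided out, at -0.16), and the part of such differences in the results below was not tested. Fibroblast markers passed in 1 of 5 cases, COL1A1 (7.28 and 2.93), with summed levels of 7.46 and 3.28. Immune (0 of 5; summed 0.444 and 0.194) and endothelial markers (0 of 4; summed 0.245 and 0.148) did not pass, and LUM and MS4A1 were listed at 0 in PJ.

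The promoter-side sequence of the 3 Sprouty genes is shown because all of them were higher in PJ, and that of SPRED3 because it was the lowest member. The sequences come from RefSeq (GRCh38.p14), which gave 12 start windows for 7 of the 9 members; ETV4 and ETV5 had no entry. The sequence after the start was matched to a transcript for the SPRY1 and SPRY4 starts shown. It was not matched for the SPRY2 and SPRED3 starts shown, so these may not be the starts in use. Of the 250 bases before each transcription start, only those upstream of the first base in a GENCODE 29 exon are printed, 5′ to 3′ on the gene's strand. This leaves 80 bases for SPRY4, which end 171 bases before the start, and 71 for SPRED3, which end 180 bases before it. Capitals mark, on either strand, the ETS core CCGGAA, the CRE core TGACG, and the Capicua octamer TGAATGAA. No capitals means that none of these letters, nor the AP-1 motif (TGANTCA) or the second Capicua form (TGAATGGA), is in the printed stretch.
SPRY1, first start (chr4:123396545-123396794, plus strand): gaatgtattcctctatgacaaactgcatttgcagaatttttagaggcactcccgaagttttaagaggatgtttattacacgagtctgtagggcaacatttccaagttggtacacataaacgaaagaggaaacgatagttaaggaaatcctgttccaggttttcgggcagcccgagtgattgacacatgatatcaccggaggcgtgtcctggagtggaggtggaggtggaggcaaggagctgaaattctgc
SPRY2, first start (chr13:80341127-80341376, minus strand): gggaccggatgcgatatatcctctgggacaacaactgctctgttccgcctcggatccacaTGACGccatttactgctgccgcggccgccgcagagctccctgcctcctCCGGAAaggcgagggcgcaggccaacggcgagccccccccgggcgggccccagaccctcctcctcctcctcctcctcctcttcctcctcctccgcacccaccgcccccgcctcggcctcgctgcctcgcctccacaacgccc
SPRY4 (chr5:142324418-142324497, minus strand): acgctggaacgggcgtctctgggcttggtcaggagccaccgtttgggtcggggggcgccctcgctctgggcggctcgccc
SPRED3, first start listed (chr19:38389541-38389611, plus strand): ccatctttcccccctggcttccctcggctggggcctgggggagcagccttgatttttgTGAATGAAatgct

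GC content was 45.6% and 68% in the 2 SPRY1 windows and 70.4%, 62.4% and 41.2% in the 3 SPRY2 windows, so windows of 1 gene differed about as much as those of both genes; the median over all windows was 58%. At the first SPRY2 start, which was not matched to a transcript, the CRE core lay 190 to 186 bases before the start. The ETS core lay 142 to 137 bases before it. The SPRY2 window with 41.2% GC, the only one of this gene whose start was matched, held neither core. Over the full 250 bases, printed or not, the ETS core was also found at the second SPRY1 start (67 to 62 bases before it) and, on the reverse strand, in PHLDA1 (89 to 84 bases before the start), so 3 of 12 member windows held it, against 14.5% of 35116 windows of the same length. A CRE core lay 68 to 64 bases before the SPRY4 start, and 21.2% of all windows held one. The Capicua octamer was found in 1 member window, that of the unmatched SPRED3 start, which also held an AP-1 motif 60 to 54 bases before its start. The window of the matched SPRED3 start held neither. The octamer occurred in 1.404% and AP-1 in 6.57% of all windows. These matches describe letters in a window and are not measured binding sites.

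HCT116 cells expressed 8 of the 9 genes, all but SPRED3, whereas 57.3% of protein-coding symbols and 27.9% of all symbols reached the same threshold. The transcription factor gene ETV4 had the highest mean, 50.8 FPKM ± 27.2 (SD, n = 2), followed by PHLDA1 at 31.2 ± 3.62, ETV5 at 21.3 ± 2.83, SPRED2 at 17.2 ± 1.79 and SPRY4 at 15.9 ± 9.71. SPRED1 stood at 6.39 ± 0.409, SPRY2 at 4.26 ± 1.80, SPRY1 at 2.31 ± 1.21 and SPRED3 at 0.427 ± 0.337. In this order the values of ETV4 and PHLDA1, of SPRED2 and SPRY4, and of SPRY2 and SPRY1 overlapped between the libraries, so these neighbours were not separated by more than their spread; the other neighbours did not overlap. The median expressed protein-coding symbol had 13.8 FPKM in PF against 16.4 in PJ, which places the ETV genes, PHLDA1 and SPRED2 above it in both libraries and SPRED1, SPRY1 and SPRY2 below it in both. All 18 estimates lay within their own deposited bounds.

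**Figure D1:**
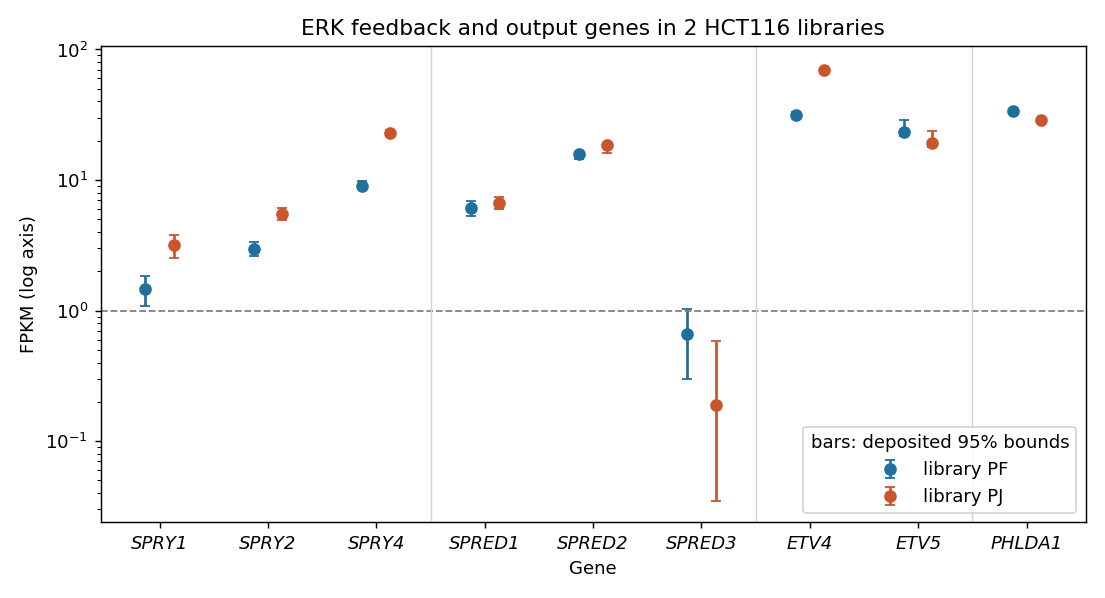
FPKM (log axis) of each gene in library PF (blue) and PJ (orange), with the deposited 95% bounds as bars and the threshold of 1 FPKM dashed. The Sprouty genes and ETV4 sit higher in PJ with bounds apart, the SPRED genes and ETV5 have bounds that overlap, and both SPRED3 values lie below the threshold.

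All 3 Sprouty genes were higher in library PJ, and their summed level was 13.5 FPKM in PF and 31.5 in PJ, a ratio of 2.33. SPRY4, a Sprouty family inhibitor that is a common readout of ERK activity (ENSG00000187678.8; hg19, chromosome 5, 141689992 to 141706020), measured 9.04 FPKM in library PF, bounded by 8.47 and 9.77, and 22.8 FPKM in library PJ, bounded by 22.03 and 24.0. Its bounds were far apart, and it was 2.52-fold higher in PJ, a log2 ratio of 1.24. That placed SPRY4 above 37.5% of expressed protein-coding symbols in PF and above 59.5% in PJ.

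SPRY2 (ENSG00000136158.6; chromosome 13, 80910111 to 80915086), whose product is phosphorylated on tyrosine and binds the ubiquitin ligase CBL and the adaptor GRB2, measured 2.99 FPKM in PF, bounded by 2.60 and 3.38, against 5.54 in PJ, bounded by 4.98 and 6.10. SPRY1 (ENSG00000164056.6; chromosome 4, 124317950 to 124324910), known for restraining RET and FGF receptor signalling in development, measured 1.46 FPKM in PF, bounded by 1.08 and 1.84, against 3.17 in PJ, bounded by 2.55 and 3.78. The bounds of both genes were apart, with PJ higher, and the linear ratios were 1.85 for SPRY2 and 2.17 for SPRY1. On the log2 scale with the pseudocount these were 0.71 and 0.76, below the 2-fold mark. SPRY1 passes that mark with a pseudocount of 0.1, at 1.07. The low levels weigh on SPRY1 most, since its PF bounds span 1.08 to 1.84 FPKM.

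The order of the Sprouty genes was the same in both libraries. SPRY4 made up 67.0% of their sum in PF and 72.3% in PJ, SPRY2 22.1% and 17.6%, and SPRY1 10.8% and 10.1%. SPRY4 was thus the main Sprouty transcript in both libraries, at 3.03 times SPRY2 in PF and 4.11 times in PJ. The relative gene SPRY3, a Sprouty outside the 9, had 0.132 FPKM in PF against 0.0956 in PJ, far below the threshold.

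**Figure D2:**
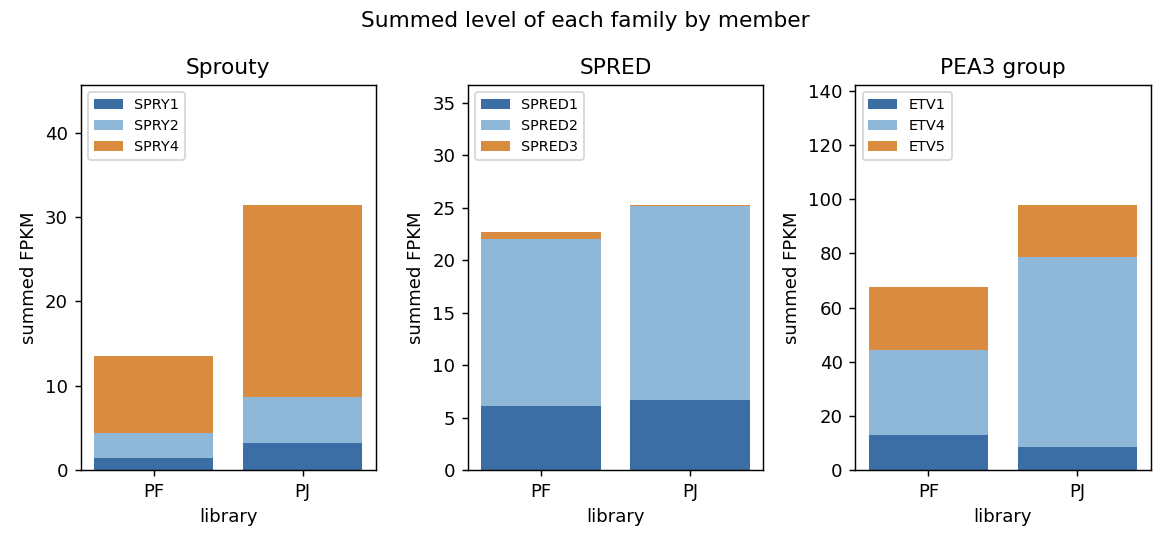
Summed FPKM (linear axis from 0) of the Sprouty genes, the SPRED genes and the PEA3-group ETS genes in each library, stacked by gene; there are no error bars because each bar is 1 library. The Sprouty sum is 13.5 in PF and 31.5 in PJ with SPRY4 the largest part, the SPRED sum is 22.7 and 25.3, and ETV4 makes up 46.6% of the PEA3-group sum in PF and 71.5% in PJ.

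SPRED1 and SPRED2 had smaller ratios between the libraries than the Sprouty genes. SPRED2 (ENSG00000198369.5; chromosome 2, 65537985 to 65659771), which encodes an EVH1-domain inhibitor of RAS-RAF signalling, measured 15.9 FPKM in PF, bounded by 14.5 and 16.2, against 18.4 in PJ, bounded by 16.1 and 18.5. SPRED1 (ENSG00000166068.8; chromosome 15, 38544527 to 38649450), the NF1 partner whose inherited loss causes Legius syndrome, measured 6.10 FPKM in PF, bounded by 5.32 and 6.88, against 6.68 in PJ, bounded by 5.96 and 7.40. For both genes the bounds of the libraries overlapped, and their log2 ratios, 0.20 for SPRED2 and 0.11 for SPRED1, lay below the median of all symbols. Dividing out the shift turned both to the other sign, at -0.03 and -0.10, so no direction is given for them.

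SPRED3 (ENSG00000188766.7; chromosome 19, 38879061 to 38886881), the family member described as lacking a functional KIT-binding domain, measured 0.666 FPKM in PF, bounded by 0.300 and 1.03, against 0.189 in PJ, bounded by 0.0350 and 0.587. The PF value was 3.52 times that of PJ, but the bounds overlapped and both values were under the threshold, so it did not enter the count of 2-fold differences. SPRED2 carried 70.2% of the summed SPRED level in PF and 72.9% in PJ, and SPRED3 2.93% and 0.748%. Of the 6 Sprouty and SPRED genes together, SPRED2 was the highest in PF, with 44.0% of the sum, and SPRY4 in PJ, with 40.1%.

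ETV4 and ETV5, close relatives that are both known ERK-responsive genes, differed between the libraries in unlike ways. ETV4 (ENSG00000175832.8; chromosome 17, 41605212 to 41656988) measured 31.6 FPKM in PF, bounded by 30.1 and 33.1, against 70.1 in PJ, bounded by 67.6 and 72.7. The bounds were apart, and ETV4 was 2.22-fold higher in PJ, with a log2 ratio of 1.13. It stood above 73.1% of expressed protein-coding symbols in PF and 86.0% in PJ.

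ETV5 (ENSG00000244405.3; chromosome 3, 185764097 to 185828107) measured 23.3 FPKM in PF, bounded by 21.8 and 28.9, against 19.3 in PJ, bounded by 17.9 and 23.9. Its bounds overlapped, with a log2 ratio of -0.26. ETV4 was therefore 1.36 times ETV5 in PF and 3.63 times ETV5 in PJ. ETV1, the other PEA3-group gene and no member of the 9, had 12.9 FPKM in PF against 8.59 in PJ, and its share of the group's sum was 19.0% and 8.76%.

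PHLDA1 (ENSG00000139289.8; chromosome 12, 76419227 to 76427712), also called TDAG51, measured 33.7 FPKM in PF, bounded by 33.2 and 34.9, against 28.6 in PJ, bounded by 28.1 and 29.7. It was the only member with bounds apart and PJ lower, but the difference was small, a log2 ratio of -0.23. Its relatives differed from it and from each other: PHLDA2, an imprinted gene, had 109.8 FPKM in PF against 140.9 in PJ, and PHLDA3, a p53 target, had 17.1 and 8.39.

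Of the 9 genes, 8 had a mean of 1 FPKM or more and were counted for differences. SPRY4 and ETV4, 2 of these 8, were at least 2-fold higher in PJ, beside 10.4% of all 15736 symbols, and 0 of 8 were at least 2-fold lower, beside 5.22%. With so few genes a count of 2 is not set apart from that background. The bounds were apart with PJ higher for 4 of the 8 (SPRY1, SPRY2, SPRY4 and ETV4), beside 44.5% of symbols with 1 row, and apart with PJ lower for 1, beside 18.3%, so these shares lie near the background. The median log2 ratio of the 8 was 0.46, beside 0.22 for all symbols; it was 0.16 over the 6 genes whose mean reached 5 FPKM. After the shift was divided out it was 0.24, beside 0.0040 for all symbols. After that step SPRY4 stayed at a log2 ratio of 1.01 and ETV4 fell below the mark at 0.88, leaving 1 of 8, beside 6.22% of symbols, with 0 of 8 at least 2-fold lower, beside 7.24%. The Sprouty genes and ETV4 kept PJ higher under the pseudocounts and scalings tried for ratios, with log2 ratios of at least 0.51. ETV5 and PHLDA1 kept PJ lower, although the bounds of ETV5 overlapped.

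**Figure D3:**
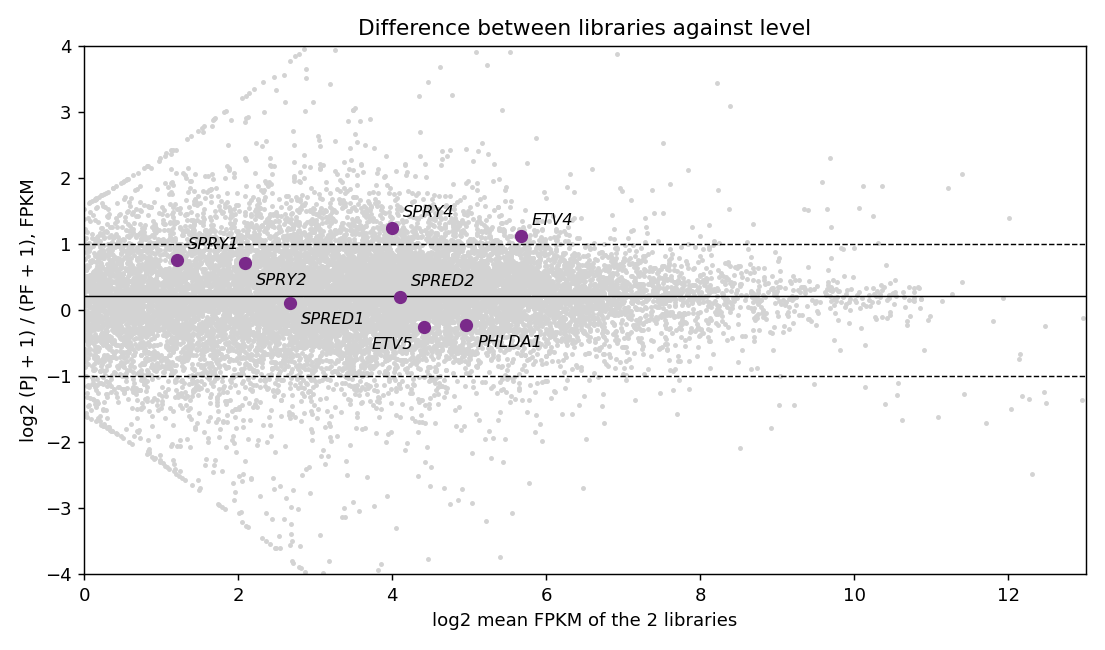
Log2 ratio of PJ over PF (FPKM + 1) against the log2 mean FPKM for the 15736 symbols whose mean reached 1 FPKM (grey; 146 lie outside the axes), with 8 of the 9 genes in purple. The solid line is the median of 0.22 and the dashed lines mark 2-fold; SPRY4 and ETV4 lie above the upper dashed line, and ETV5 and PHLDA1 below 0.

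Several members share their locus with other transcripts, and the labels do not state that strand was used in counting, so reads of such pairs may not be told apart. PHLDA1 overlaps RP11-290L1.3 (ENSG00000257453.1; chromosome 12, 76424274 to 76425158), which GENCODE 29 places on the opposite strand with 97.2% of its exon bases inside PHLDA1 exons. That antisense row was listed at 30.0 FPKM for PF, with bounds of 21.5 and 25.9, and at 127.8 for PJ, with bounds of 97.3 and 106.9; PJ was 4.26 times PF, and both values lie above their own upper bounds. The antisense row and PHLDA1 thus differed in opposite directions over shared sequence, and the value of PHLDA1 is uncertain for this reason. A second antisense row there, RP11-290L1.2, had upper bounds of only 0.0997 and 0.101 FPKM.

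The exon overlaps of the ETV genes that could be read were smaller. The helicase gene DHX8, on the strand opposite ETV4, shared 68 exon bases with it, or 0.651% of its own, and had 25.9 FPKM in PF against 26.8 in PJ, both above its own upper bounds of 25.4 and 26.3. DGKG, a diacylglycerol kinase gene on the same strand as ETV5, shared 164 exon bases, or 1.49% of its own, and had 4.81 FPKM in PF against 8.95 in PJ. ETV5-AS1, which shares no exon base with ETV5, reached 1.58 FPKM in PF, bounded by 1.22 and 1.94, and was near 0 in PJ, with an upper bound of 0.0959. AC005592.2, the SPRY4 antisense RNA, had 0.796 FPKM in PF against 0.708 in PJ and shared no exon base with SPRY4. The last overlapping rows, RP11-392O1.4 at ETV4 and AC012370.2 at SPRED2, were near 0, with no upper bound above 0.0927 FPKM. RP11-392O1.4 overlaps the ETV4 locus by 34836 bases, but it was not matched in GENCODE 29, so its shared exon bases are not known. ETV4 was thus higher in PJ beside a neighbour at nearly equal levels, and its part in the values was not tested.

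**Figure D4:**
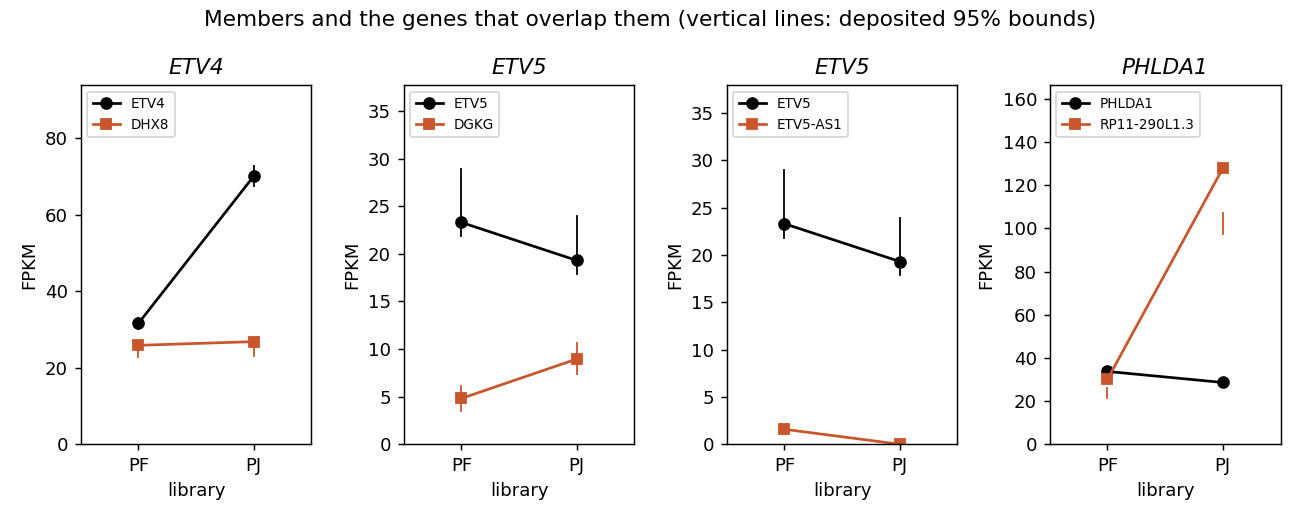
FPKM (linear axis from 0) in libraries PF and PJ of 3 members (black) and of the genes that overlap them (orange), with deposited 95% bounds as vertical lines. DHX8 is nearly level while ETV4 is higher in PJ, and at the PHLDA1 locus the antisense row RP11-290L1.3 has 30.0 and 127.8 FPKM, with DHX8 and this row above their own bounds in both libraries, while PHLDA1 is at 33.7 and 28.6.

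The rest of the pathway was read from lists, which were chosen with earlier results of these data known. Paired values give PF first and PJ second. Among 16 other ERK-induced genes and feedback inhibitors, 15 were expressed, and 6 of these were at least 2-fold higher in PJ, beside 10.4% of all symbols. None (0 of 15) was lower by that much, beside 5.22%, and the median log2 ratio was 0.35. The phosphatase gene DUSP5, which acts on nuclear ERK, had 11.7 FPKM in PF against 64.2 in PJ, and DUSP4, another nuclear phosphatase gene, had 4.84 and 17.0. The AP-1 subunit gene FOSL1 was at 41.1 and 98.03 FPKM, the immediate early gene EGR1 at 9.63 and 23.3, CCND1 (cyclin D1) at 64.8 and 209, and MYC at 55.7 and 196. IER3, an early response gene with the highest mean of the list, was lower in PJ, at 292 and 171 FPKM, as was ERRFI1, the gene of the EGFR inhibitor MIG6, at 135 and 79.1. EPHA4, an ephrin receptor gene, was the lowest at 0.809 and 0.0326.

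DUSP6, the cytoplasmic ERK phosphatase gene and often paired with the Sprouty genes as a readout, had 23.3 FPKM in PF against 16.2 in PJ; it was chosen after its values were seen. After the shift was divided out, 4 of the 15 were at least 2-fold higher in PJ (DUSP5, DUSP4, CCND1 and MYC), beside 6.22% of symbols, and 2 at least 2-fold lower (IER3 and ERRFI1), beside 7.24%. The 10 genes of the published ERK output score, which include 5 of the 9 examined here, were also split: of 9 whose mean reached 1 FPKM, 6 were higher and 3 lower in PJ, with 4 at least 2-fold higher (SPRY4, ETV4, DUSP4 and CCND1), beside 10.4% of symbols. Dividing out the shift left 3 of these 4, all but ETV4, beside 6.22%. Of the 5 genes examined here that are in this score, SPRY2, SPRY4 and ETV4 were higher in PJ with bounds apart. ETV5 and PHLDA1 were lower there, as was DUSP6. The bounds of ETV5 overlapped between the libraries, however, and the value of PHLDA1 is uncertain because of its antisense row.

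Upstream of the 9 genes, of 12 receptor tyrosine kinase genes 10 were expressed, with a median log2 ratio of -0.21. FGFR4 was the highest, at 39.5 FPKM in PF and 27.4 in PJ, followed by MET, the hepatocyte growth factor receptor gene, at 35.8 and 15.4. MET was the only 1 of the 10 at least 2-fold lower in PJ, beside 5.22% of all symbols. None (0 of 10) was at least 2-fold higher, beside 10.4%. KIT was the lowest at 0.0143 and 0.000202. In the RAS-ERK cascade, 18 of the 19 genes with a value in both libraries were expressed, with a median log2 ratio of 0.01. The adaptor gene GRB2 had 137.8 FPKM in PF against 113.9 in PJ and HRAS had 76.7 and 111.3. ARAF, a RAF kinase gene, was at 18.0 and 5.21 FPKM and FRS2, the FGF receptor adaptor gene, at 17.6 and 7.56, both at least 2-fold lower in PJ. These were 2 of 18, beside 5.22% of all symbols, and 0 of 18 were at least 2-fold higher, beside 10.4%. GAB1, an adaptor gene, was the lowest at 0.159 and 1.02. The estimate for SHC1 failed in PJ.

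Genes of proteins that bind or modify Sprouty and SPRED were expressed in 10 of 10 cases, with a median log2 ratio of 0.23. The phosphatase 2A subunit gene PPP2R1A (152 and 180 FPKM) and CAV1 (caveolin, 141 and 187) led, and NEDD4, a ubiquitin ligase gene for Sprouty, was the lowest at 2.54 and 4.24. DYRK1A, a kinase gene, had 64.5 FPKM in PF against 31.3 in PJ. It was the only 1 of the 10 at least 2-fold lower, beside 5.22% of all symbols. None (0 of 10) was at least 2-fold higher, beside 10.4%. Both DYRK1A estimates lie above their own upper bounds, which were 43.3 and 25.9. The estimates of PPP2R1A, CAV1 and GRB2 also lie above their bounds in both libraries, and that of ARAF does in PF. NF1, the gene of the GTPase-activating protein recruited by SPRED, was at 7.43 and 3.66 FPKM. With the pseudocount its log2 ratio was -0.86, short of the 2-fold mark. The 7 genes that repress or degrade PEA3 factors were all expressed. Of these, 0 of 7 were at least 2-fold higher or lower in PJ, beside 10.4% and 5.22% of all symbols. DDB1 (107.6 and 117.9) and CUL4A (61.3 and 80.5) were the highest and ATXN1 (3.64 and 2.06), a Capicua cofactor gene, the lowest. After the shift was divided out, NF1 and DET1 (a COP1 complex gene) also passed the 2-fold mark, at -1.05 and -1.06, as did PHLDA3 at -1.16. That made 2 of 10 partner genes and 1 of 7 PEA3 regulators at least 2-fold lower, beside 7.24% of symbols. DET1 had 6.13 FPKM in PF against 2.87 in PJ. Its PF bounds, 0.145 and 23.9, span both values, so no direction is given for it.

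**Figure D5:**
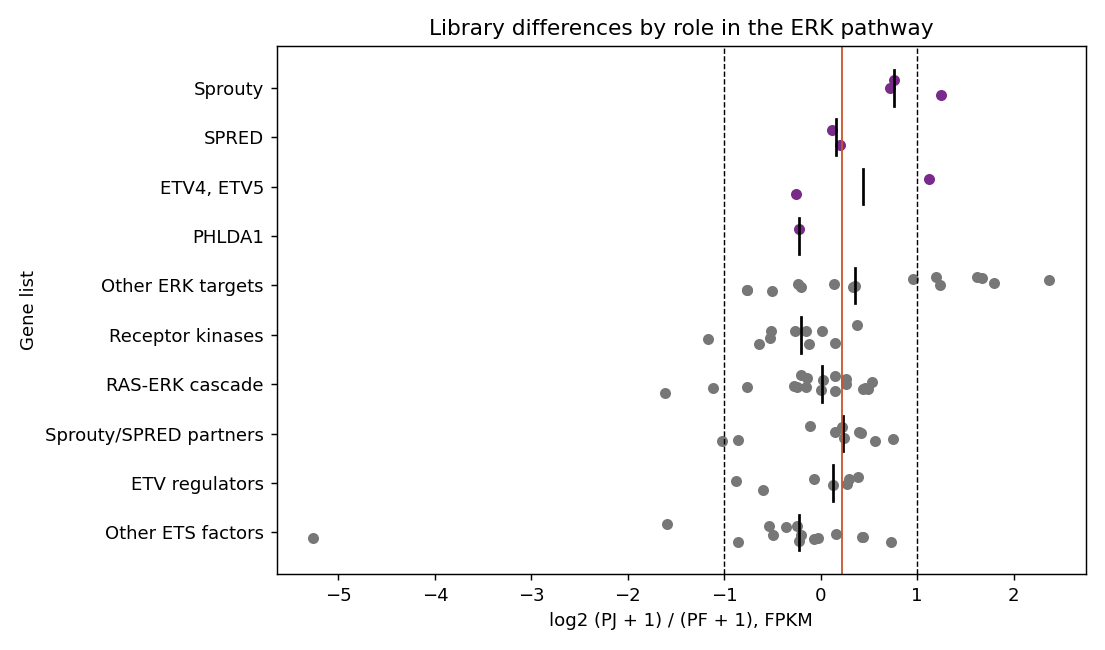
Log2 ratio of PJ over PF (FPKM + 1) for each gene with a mean of 1 FPKM or more, by role, with the 9 genes' lists in purple and the context lists in grey; black ticks are list medians, the orange line is the median of all symbols (0.22), and dashed lines mark 2-fold. The 3 Sprouty genes lie right of the orange line, ETV4 and ETV5 lie on opposite sides of it, and other ERK targets spread from -0.77 to 2.36.

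Against 25 other ETS genes, ETV4 was the highest in PJ and stood behind ELF3 and ELK1 in PF. Of these, 14 were expressed, with a median log2 ratio of -0.22 over the 15 whose mean reached 1 FPKM. ELF3 and EHF, 2 of the 15, were at least 2-fold lower in PJ, beside 5.22% of all symbols. None (0 of 15) was higher by that much, beside 10.4%. ELK1, a ternary complex factor that ERK phosphorylates, had 48.4 FPKM in PF against 37.4 in PJ. ELF3, an epithelial ETS factor, had 76.3 FPKM in PF against 1.02 in PJ, and FEV was the lowest, at 0.0132 and 0.0136.

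The 9 transcripts differ in structure. In GENCODE 29 the coding sequence lies in 1 exon for SPRY1, SPRY2 and PHLDA1, as for 10.7% of 19670 protein-coding genes, whereas that of ETV4 and ETV5 is spread over 12 exons each. The 3′ UTR was longer than the median of 745 bases in 7 of 9, reaching 5585 bases in SPRED1, 4672 in PHLDA1 and 3782 in SPRY4, and was 675 bases in ETV4. The pentamer ATTTA, a component of AU-rich elements of unstable transcripts, occurred in the 3′ UTR of 7 of 9 genes, beside 60.1% of all. It occurred 24 times in SPRED1, 14 times in PHLDA1 and 8 times in SPRY4, and 0 times in ETV4 and SPRED3. SPRY4 and ETV4, the members with the largest log2 ratios, thus differ in this feature.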

How the data were processed

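HCT116 total RNA was turned into libraries with Illumina TruSeq reagents, per the labels' protocols. TopHat2 2.0.8b, TopHat, Cufflinks (no version) and the hg19 build are named, without their order, per the submitters' processing notes; no annotation release is given in the sources used here. FPKM per gene, with lower and upper 95% bounds and a status, were deposited by the authors, per the file headers. Both tables hold 56586 rows. Estimates with status FAIL (23 in PF, 20 in PJ) were treated as missing, and FPKM of rows sharing a symbol were summed. Because FPKM divides by the library total, abundant RNAs weigh on every other value. No read totals are given: the upper bound times span of short genes listed at 0 had a median of 43.8 in PF and 45.6 in PJ, which would put the PF total at 1.04 times that of PJ if a bound stands for the same fragments.

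Gene type, strand and structure came from GENCODE 29 by identifier (88.7% of rows matched; 1 transcript per gene, with the longest coding sequence), with no coordinate of it printed. Named from each pathway list were the 2 highest means, the lowest, and genes 2-fold apart with a mean of 5 FPKM or more; all relatives and overlapping genes were named. Marker lists are given by counts and sums with the genes that decide them, and ERRFI1, NF1, DET1, DUSP6 and EHF were named after their values were seen. No gene was named for a pattern like a member's, since 2 libraries give none to match. The members and lists were chosen with earlier results of these data known. Alternatives covered thresholds, pseudocounts, filters, scalings and each library alone. Python 3.11.15, numpy 2.4.6 and pandas 2.3.3 were used.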

Additional observations from a re-analysis of the deposited data

How the results depend on the processing

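The count of expressed genes was 8 at thresholds of 0.5 and 1 FPKM, with the lower bound in place of the estimate, with failed estimates as 0 and in either library alone; it was 6 at 5 FPKM and 4 at 10 FPKM. The count at least 2-fold higher in PJ was 2, rising to 3 with a pseudocount of 0.1 or none and going to 1 with the median ratio divided out; the count at least 2-fold lower was 0 under every setting tried for it. Over the whole table, dividing out the median ratio moved the calls from 1641 higher and 821 lower to 964 and 1123. Leaving out either library left 1 value for each gene's level and no ratio. Rescaling to protein-coding genes multiplied levels by 1.76 in PF and 1.75 in PJ and moved 8 of 9 means by more than their SD. Log2 ratios were not computed under this scaling. SPRED3 moved from -0.49 to -1.81 on the log2 scale without a pseudocount. No paired analysis was possible because there is 1 group. The deposited bounds were widest for their level in SPRY1 and SPRED3, and the reason was not tested.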

Other observations

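Expressed genes within 250 kb of several members differed in their own ways. DUSP3, a phosphatase gene 187 kb beyond ETV4, had 7.84 FPKM in PF against 17.5 in PJ (log2 ratio 1.06). SPATA5, 82.1 kb from SPRY1, was at 2.39 and 5.79 FPKM, a log2 ratio of 1.00 beside 0.76 for SPRY1. NDFIP1, an adaptor gene of NEDD4-type ubiquitin ligases 156 kb from SPRY4, was at 27.9 and 28.5 FPKM, so the neighbour of SPRY4 was nearly level while SPRY4 was higher in PJ. NAP1L1, 11.0 kb from PHLDA1, was at 215.7 and 203.6 FPKM, and TRA2B, 108 kb from ETV5, at 170.9 and 175.8. PSMD8 and FAM98C, on the 2 sides of SPRED3, were at 159.8 and 13.1 FPKM in PF and at 244.0 and 23.2 in PJ, both higher in PJ while SPRED3 was at 0.666 and 0.189.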
